A study of Mus musculus with 14 samples.

Results

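A set of 66 genes of DNA repair, DNA replication and the DNA damage checkpoint was followed in ovalbumin-specific mouse CD8+ T cells given ovalbumin antigen in different forms or none. The genes were taken by symbol from the 10106 genes of the expression table: the Fanc and Xrcc genes, genes named after Rad50, Rad52 and Rad54 with their relatives, Brca1, Brca2 and Bard1, mismatch repair genes such as Msh3, Msh6 and Mlh3, the Ercc genes, the DNA ligases, Parp1 to Parp3, the subunits of DNA polymerases delta and epsilon and of replication protein A, and Atm, Atr, Chek1, Chek2, Blm, Exo1, Clspn and Fignl1. The rule used symbols and no measured value. All 66 genes had a mean of at least 1 RPKM (read counts scaled by gene length and library size) over the 14 libraries and entered the test.

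The cells came from OTI mice, whose CD8+ T cells carry a transgenic receptor for the ovalbumin peptide SIINFEKL, so every group, controls included, holds T cells of this single specificity placed in a C57BL6j host. Cells labelled with CFSE were injected by vein into CD45.2+ recipients on day 0. An antigen dose of 223 pmol in saline followed by vein on day 1. It was whole ovalbumin (OVA, 3 libraries), ovalbumin carrying ERY1, a peptide that binds erythrocytes (ERY1-OVA, 3 libraries), SIINFEKL joined to the erythrocyte-binding antibody TER119 (TER119-SIINFEKL, 3 libraries) or SIINFEKL alone (SIINFEKL, 2 libraries), and the group named Naive received saline (3 libraries). Viable cells positive for CD3e, CD8 and CD45.1 were sorted from spleens on day 4, and poly(A) RNA was sequenced. The labels give an age of 8 to 12 weeks. They do not say that each library came from its own mouse, so p-values measure the spread between these libraries, which may in part be technical.

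A dividing cell copies its genome and repairs what goes wrong on the way. Polymerases delta and epsilon copy the strands, replication protein A covers single-stranded DNA, and the kinases ATR and CHK1 hold the cycle when forks stall, with claspin as their mediator. Homologous recombination mends broken forks from the sister copy with the help of BRCA1 and BRCA2, and the Fanconi anaemia pathway unlinks crosslinked strands. Mismatch repair, single-strand break repair, end joining and nucleotide excision repair each remove another kind of lesion. CD8+ T cells rest until they meet antigen and then divide rapidly, and resting lymphocytes copy no DNA.

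The sorted cells carried T cell transcripts in every library, with Cd8a between 247 and 398 RPKM and Cd4 at most 1.31 RPKM. The summed level of 5 CD8 T cell markers was 1920 to 2231 RPKM in OVA, 2143 to 2317 RPKM in ERY1-OVA, 1779 to 2422 RPKM in TER119-SIINFEKL and 2624 to 2649 RPKM in SIINFEKL libraries, against 2631 to 3028 RPKM in Naive libraries. Of these 5 markers limma called 4 lower after OVA, 3 after ERY1-OVA, 2 after TER119-SIINFEKL and 0 after SIINFEKL, where 1 had an unadjusted p under 0.05. Of 5 B cell markers 2 had values, and their summed level was 15.1 to 21.8 RPKM in OVA, 17.6 to 22.5 RPKM in ERY1-OVA, 23.8 to 27.5 RPKM in TER119-SIINFEKL and 12.8 to 21.5 RPKM in SIINFEKL libraries, against 8.49 to 10.3 RPKM in Naive libraries. Of this pair Cd22 was called higher after each antigen (4.18 on the log2 scale after OVA) and Cd79b after none. All 4 MHC class II markers had values, and their sum was 11.4 to 68.3 RPKM in OVA, 6.37 to 10.8 RPKM in ERY1-OVA, 10.4 to 34.6 RPKM in TER119-SIINFEKL and 11.5 to 12.8 RPKM in SIINFEKL libraries, against 12.7 to 26.5 RPKM in Naive libraries. OVA replicate 1 and TER119-SIINFEKL replicate 1 were the highest of their groups. Of 5 macrophage or monocyte markers 3 had values. Cd68 was called higher after OVA (0.88), ERY1-OVA (1.24) and TER119-SIINFEKL (1.26). Itgam and Lyz2 were not called, at -0.08 and 0.66 after OVA, -1.93 and -0.07 after ERY1-OVA, and -1.27 and -0.21 after TER119-SIINFEKL, lower value first. Itgax, the only dendritic cell marker of 3 with values, was called higher after OVA (0.84). Pecam1, the only stroma and endothelium marker of 3 with values, was called higher after ERY1-OVA (0.40) and SIINFEKL (0.92). It stood at 27.7 to 32.9 RPKM already in Naive libraries. Of the NK cell markers, Klrk1 was called higher (0.75) and Klrb1c lower (-0.92) after OVA, and H2-Aa of MHC class II was called lower after ERY1-OVA (-1.94). Of 6 erythroid markers 2 had values, Hba-a1 and Hba-a2. Their sum was 7.54 to 10.85 RPKM in Naive and 2.73 to 8.54 RPKM in OVA libraries. It was 2.185 to 3.84 RPKM in ERY1-OVA, 1.55 to 20.3 RPKM in TER119-SIINFEKL and 1.53 to 2.27 RPKM in SIINFEKL libraries. Neither gene was called against Naive, but limma gave both an unadjusted p under 0.05 after ERY1-OVA and SIINFEKL. The same held for 49% and 31.3% of all genes tested. The part of other cells in the results was not tested. In sorted bulk RNA, fewer cells that express a gene and less RNA per cell cannot be told apart. Depth per library is unknown, because the values came already normalized.

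Promoter windows show what some of these genes share in sequence. RefSeq windows of 300 bases on GRCm38.p6, 250 bases before and 50 after a start site, matched 53 of the 66 genes by symbol, with 61 windows in all. They were searched on both strands for the motif of E2F factors, known as activators of DNA replication genes, in the forms TTTCCCGC, TTTCGCGC, TTTGCCGC and TTTGGCGC. At least 1 match stood in 14 of 53 genes (26.4%), against 704 of the 27025 genes of the whole promoter table (2.6%). The share was 12 of 33 (36.4%) among the genes called higher after OVA, and 2 of 20 (10.0%) among the others. The windows of the 66 genes were also richer in G and C, as the motif is, with a median of 60.0% against 52.7% over all windows. A motif of late cell cycle genes, TTTGAA, stood in 3 of 53 genes (5.66%), against 20.2% of all genes of the table. A match is a run of letters and not a measured site.

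Windows of 4 genes are printed to set genes with a match that rose after OVA (Clspn, Lig1 and Brca2) beside Msh3, which carried overlapping matches on both strands and passed the test in no comparison. Lig1 also has windows at chr7:13276925-13277224 and chr7:13279015-13279314, each with 0 E2F matches, which are not printed. Capitals mark the E2F matches. The printed windows lie at chr4:126556730-126557029 on the plus strand, chr7:13278576-13278875 on the plus strand, chr5:150522371-150522670 on the plus strand and chr13:92354954-92355253 on the minus strand, and each is written along its gene, so that the start site follows the first 250 bases.
Clspn: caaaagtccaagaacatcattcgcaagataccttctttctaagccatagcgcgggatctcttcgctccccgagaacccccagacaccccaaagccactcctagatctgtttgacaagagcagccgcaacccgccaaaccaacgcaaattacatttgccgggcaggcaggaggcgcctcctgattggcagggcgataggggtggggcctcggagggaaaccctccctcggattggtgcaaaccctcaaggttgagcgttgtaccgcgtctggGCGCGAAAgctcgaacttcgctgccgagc
Lig1: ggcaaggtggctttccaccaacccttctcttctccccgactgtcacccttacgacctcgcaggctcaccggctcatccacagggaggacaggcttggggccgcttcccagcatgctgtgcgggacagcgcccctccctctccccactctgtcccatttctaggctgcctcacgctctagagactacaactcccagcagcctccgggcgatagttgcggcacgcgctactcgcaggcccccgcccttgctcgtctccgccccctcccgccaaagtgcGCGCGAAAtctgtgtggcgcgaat
Brca2: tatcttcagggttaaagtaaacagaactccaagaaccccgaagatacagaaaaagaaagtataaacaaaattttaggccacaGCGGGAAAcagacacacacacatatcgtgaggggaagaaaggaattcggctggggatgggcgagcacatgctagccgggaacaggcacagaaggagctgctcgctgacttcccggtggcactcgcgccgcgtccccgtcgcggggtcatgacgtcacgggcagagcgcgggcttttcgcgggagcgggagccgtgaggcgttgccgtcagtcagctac
Msh3: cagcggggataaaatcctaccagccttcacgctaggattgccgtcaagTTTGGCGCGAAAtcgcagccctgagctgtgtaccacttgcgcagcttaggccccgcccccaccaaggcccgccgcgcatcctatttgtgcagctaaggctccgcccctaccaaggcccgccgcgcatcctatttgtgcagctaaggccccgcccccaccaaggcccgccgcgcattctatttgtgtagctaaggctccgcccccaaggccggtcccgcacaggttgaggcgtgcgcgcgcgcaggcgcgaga

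OVA, ERY1-OVA and TER119-SIINFEKL were each compared with Naive to see which of these genes moved when the cells met antigen. Most genes of homologous recombination, the Fanconi anaemia pathway, replication protein A and the replicative polymerases were called higher in each of these groups, whereas no gene of nucleotide excision repair was. After OVA 40 of 66 genes were called higher and 3 lower, after ERY1-OVA 38 and 3, and after TER119-SIINFEKL 41 and 3. A call is an adjusted p under 0.05 from limma on log2 RPKM, two-sided, with Benjamini-Hochberg adjustment over all 9793 genes tested. Over all genes tested, 47.6% were called after OVA (24.4% higher and 23.1% lower), 39.9% after ERY1-OVA (20.9% and 19%) and 47.6% after TER119-SIINFEKL (24.6% and 23%). The median log2 fold change of the 66 genes was 0.80 after OVA, 0.58 after ERY1-OVA and 0.66 after TER119-SIINFEKL, against medians of -0.04, -0.01 and 0.00 over all genes in the same order. The libraries of the 2 groups did not overlap in 49 of the 66 genes after OVA, against 59.8% of all genes tested, in 45 after ERY1-OVA, against 52.5%, and in 48 after TER119-SIINFEKL, against 58%. These comparisons share the 3 Naive libraries, so their likeness is not a separate result. Of 6 cycling genes set beside the 66, all 6 were called higher after each of these antigens, Mki67 by 5.03 ± 0.55 on the log2 scale after OVA, 5.19 ± 0.55 after ERY1-OVA and 4.87 ± 0.55 after TER119-SIINFEKL, and their part in the results was not tested.

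The level before antigen set the genes apart. In 14 genes the Naive mean was under 1 RPKM, and all 14 were called higher after each of these antigens, with median log2 fold changes of 3.96 after OVA, 3.885 after ERY1-OVA and 3.78 after TER119-SIINFEKL. Of the 52 genes at 1 RPKM or more, 26 were called higher and 3 lower after OVA, with a median of 0.44. The corresponding counts were 24 and 3 after ERY1-OVA (median 0.28) and 27 and 3 after TER119-SIINFEKL (median 0.42). A gene that is low in Naive entered the test only because other groups raised its mean, so the 14 had to differ and their count supports nothing. Their folds also depend on the scale. With 1 added to the RPKM before taking logs, the log2 fold change after OVA was 3.26 for Rad54l, in place of 5.17, and 2.28 for Exo1, in place of 4.54, and both calls held.

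**Figure D1:**
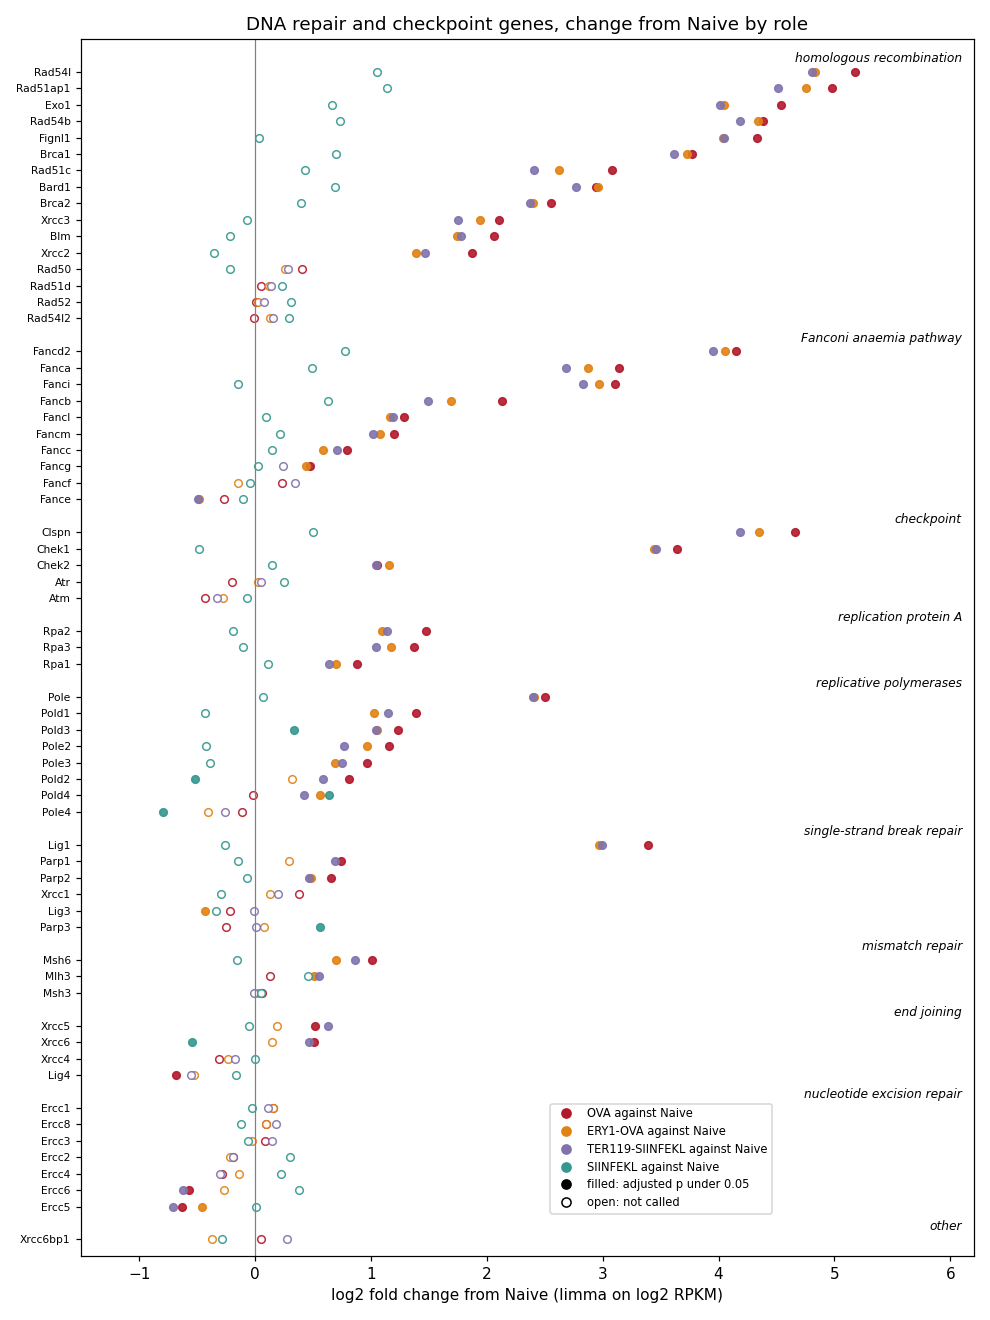
Log2 fold change from Naive (x axis) of 63 of the 66 genes (rows), grouped by role, after OVA, ERY1-OVA, TER119-SIINFEKL and SIINFEKL, with filled points for an adjusted p under 0.05. Recombination genes reach up to 5.17 after OVA, 4.83 after ERY1-OVA and 4.81 after TER119-SIINFEKL, nucleotide excision repair genes lie between -0.71 and 0.38, and 6 SIINFEKL points are filled.

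**Figure D2:**
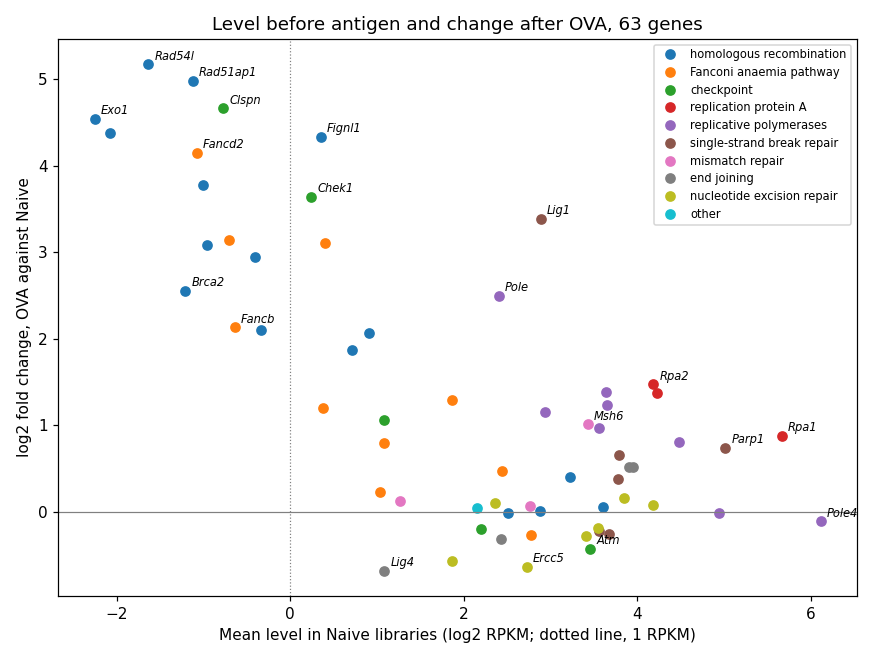
Mean level in the 3 Naive libraries (x axis, log2 RPKM) against the log2 fold change after OVA (y axis) for 63 of the 66 genes, coloured by role, with a dotted line at 1 RPKM. The 13 genes left of the line all lie above 2 on the y axis, and the genes above 16 RPKM (4 on the x axis) lie below 1.5.

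Homologous recombination showed the widest changes. Of 17 genes, 13 were called higher and none lower after OVA, after ERY1-OVA and after TER119-SIINFEKL, with median log2 fold changes of 2.94, 2.63 and 2.41. Higher calls were 76.5% each time, against 24.4%, 20.9% and 24.6% of all genes tested. Rad54l, the motor protein that helps a broken strand invade its partner (chromosome 4, 116094264 to 116123690 on GRCm38, the build of all gene positions given), stood at 9.97, 11.8 and 13.3 RPKM in OVA, 10.2, 7.70 and 9.82 in ERY1-OVA, 6.27, 10.7 and 10.9 in TER119-SIINFEKL and 1.73 and 0.259 in SIINFEKL, against 0.318, 0.323 and 0.325 in Naive libraries. Its Naive values hardly varied, and its change after OVA, 5.17 ± 0.47 (SE, 3 against 3 libraries, adjusted p = 2.3e-06), was the largest of the 66 genes. Each SE given comes from 1 spread per gene over all 14 libraries, not from the groups compared alone. For Rad54l the log2 SD was 0.21 in OVA, 0.015 in Naive and 1.935 in SIINFEKL libraries, all of which enter the SE. Exo1, the exonuclease that trims broken ends and also serves mismatch repair (chromosome 1, 175880581 to 175913489), stood at 4.95, 4.32 and 5.43 RPKM in OVA, 4.31, 2.83 and 3.41 in ERY1-OVA, 2.77, 3.59 and 3.90 in TER119-SIINFEKL and 0.562 and 0.196 in SIINFEKL, against 0.196, 0.255 and 0.185 in Naive libraries. No library of the groups OVA, ERY1-OVA and TER119-SIINFEKL overlapped a Naive library, and the change after OVA was 4.54 ± 0.32 (adjusted p = 3.1e-07).

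The breast cancer susceptibility genes and their partner moved in the same direction. Brca1, which promotes end trimming (chromosome 11, 101488764 to 101551955), stood at 5.57, 6.77 and 8.27 RPKM in OVA, 7.57, 5.82 and 6.45 in ERY1-OVA, 4.42, 7.52 and 6.73 in TER119-SIINFEKL and 1.57 and 0.416 in SIINFEKL, against 0.358, 0.725 and 0.472 in Naive libraries. The lowest of the 9 libraries after OVA, ERY1-OVA and TER119-SIINFEKL was TER119-SIINFEKL replicate 1, at 4.42 RPKM, and all 9 were above Naive. The log2 fold change was 3.77 ± 0.40 after OVA (adjusted p = 7.2e-06), 3.73 ± 0.40 after ERY1-OVA and 3.61 ± 0.40 after TER119-SIINFEKL. Brca2, which helps prepare a trimmed end for strand exchange (chromosome 5, 150522630 to 150570329), stood at 2.18, 2.52 and 3.00 RPKM in OVA, 2.63, 2.03 and 2.24 in ERY1-OVA, 1.51, 3.04 and 2.47 in TER119-SIINFEKL and 0.745 and 0.435 in SIINFEKL, against 0.374, 0.442 and 0.491 in Naive libraries. It was thus a rare transcript in every group, and its change after OVA was 2.56 ± 0.28 (adjusted p = 1.0e-05). Bard1, the obligate partner of BRCA1, changed by 2.94 ± 0.44 after OVA, 2.96 ± 0.44 after ERY1-OVA and 2.77 ± 0.44 after TER119-SIINFEKL.

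Other recombination genes split into those that rose and those that did not. Rad51ap1, Rad54b and Fignl1, which also serve recombination, changed by 4.98, 4.38 and 4.33 on the log2 scale after OVA, and Rad51c, Xrcc3 and Xrcc2, which act in the same pathway, by 3.08, 2.11 and 1.87. Blm, the helicase that dissolves joined strands, changed by 2.06 ± 0.23 after OVA (adjusted p = 1.0e-05). The 4 genes that did not pass the test after these antigens were Rad50, Rad51d, Rad52 and Rad54l2. Rad51d, a relative of the 3 above, lay at 12.1 to 13.4 RPKM after OVA, 12.4 to 14.1 RPKM after ERY1-OVA and 13.02 to 13.7 RPKM after TER119-SIINFEKL, against 11.3 to 13.5 RPKM in Naive libraries. Those groups overlapped, with a log2 fold change after OVA of 0.05 ± 0.11 (adjusted p = 0.73). Rad52, which helps strands anneal, likewise lay at 6.74 to 7.87 RPKM after OVA, against 6.87 to 8.05 RPKM in Naive libraries.

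**Figure D3:**
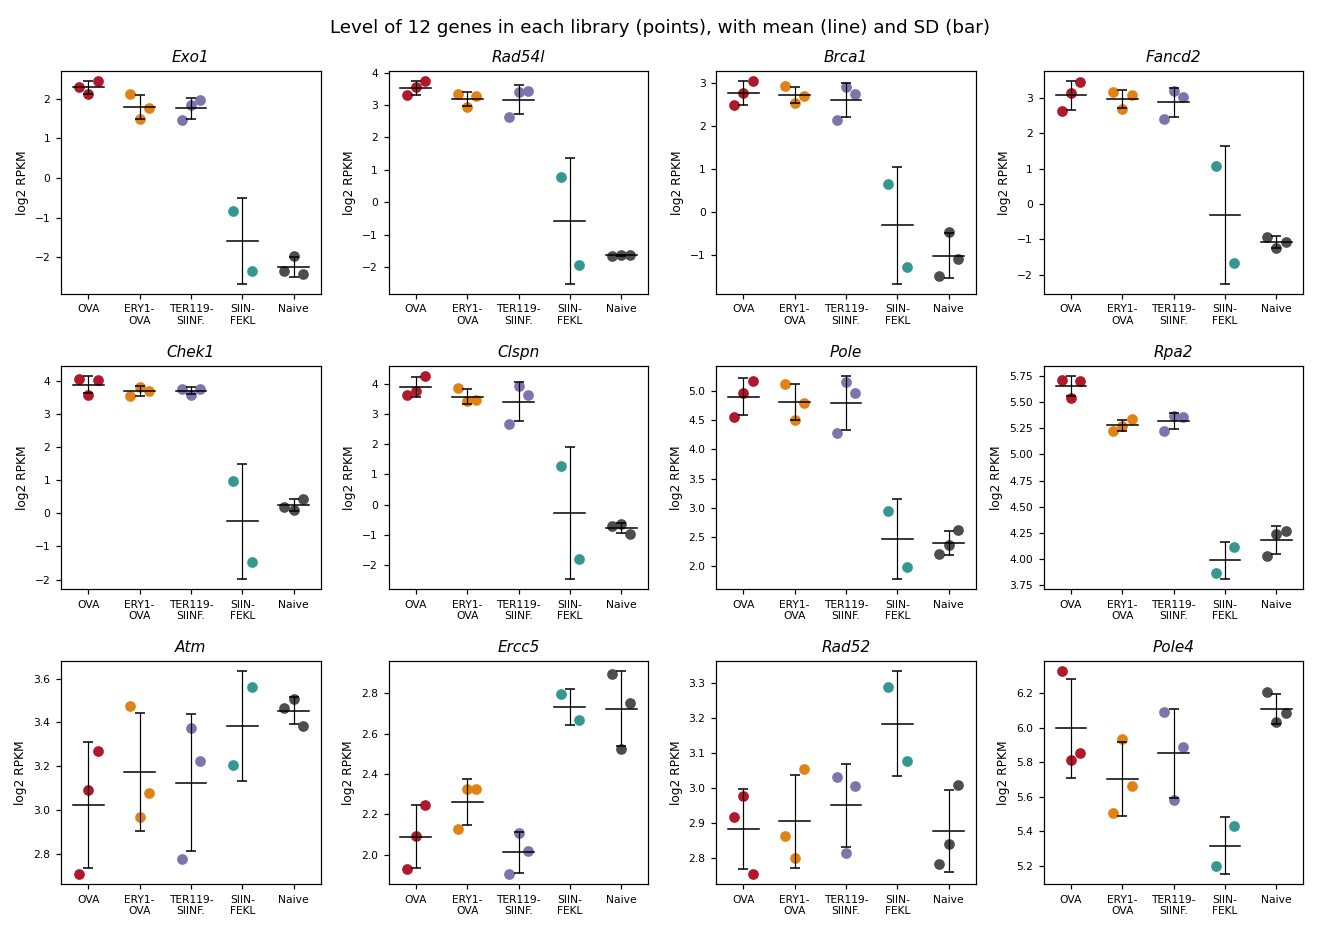
Level of 12 genes (y axes, log2 RPKM, each panel with its own scale) in every library of the 5 groups, with the group mean as a line and the SD as a bar. Exo1, Rad54l, Brca1, Fancd2, Chek1, Clspn, Pole and Rpa2 stand apart above the Naive libraries after OVA, ERY1-OVA and TER119-SIINFEKL, Atm, Rad52 and Pole4 overlap with Naive in at least 1 of these groups, Ercc5 is below Naive after these antigens, and the SIINFEKL pair is spread widely in Exo1, Rad54l, Brca1, Fancd2, Chek1 and Clspn.

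In the Fanconi anaemia pathway 8 of 10 genes were called higher after OVA and none lower, 8 higher and 1 lower after ERY1-OVA, and 7 higher and 1 lower after TER119-SIINFEKL. Higher calls were 80%, 80% and 70% of the 10, against 24.4%, 20.9% and 24.6% of all genes tested. The lower calls were 10% after ERY1-OVA, against 19%, and 10% after TER119-SIINFEKL, against 23%. The pathway ends in a clamp of FANCD2 and FANCI, which a core complex marks with ubiquitin at crosslinked DNA. Fancd2 (chromosome 6, 113531682 to 113597017) stood at 6.19, 8.75 and 10.9 RPKM in OVA, 8.98, 6.42 and 8.42 in ERY1-OVA, 5.31, 9.12 and 8.20 in TER119-SIINFEKL and 2.10 and 0.312 in SIINFEKL, against 0.528, 0.422 and 0.478 in Naive libraries. Its change was 4.15 ± 0.49 after OVA (adjusted p = 2.0e-05), 4.05 ± 0.49 after ERY1-OVA and 3.96 ± 0.49 after TER119-SIINFEKL, and only SIINFEKL replicate 2 fell below the Naive libraries. Fanci (chromosome 7, 79391929 to 79450264) stood at 10.9, 10.4 and 12.9 RPKM in OVA, 10.6, 9.23 and 11.1 in ERY1-OVA, 8.23, 10.1 and 9.93 in TER119-SIINFEKL and 1.95 and 0.722 in SIINFEKL, against 1.23, 1.51 and 1.22 in Naive libraries, so that the groups after OVA, ERY1-OVA and TER119-SIINFEKL again lay clear of Naive. Its change after OVA was 3.11 ± 0.27 (adjusted p = 1.3e-06).

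The core complex moved unevenly. Fanca, a core subunit (chromosome 8, 123268300 to 123318576), stood at 5.55, 4.64 and 6.03 RPKM in OVA, 4.33, 3.96 and 5.27 in ERY1-OVA, 2.51, 5.05 and 4.74 in TER119-SIINFEKL and 1.74 and 0.422 in SIINFEKL, against 0.666, 0.614 and 0.559 in Naive libraries. TER119-SIINFEKL replicate 1 was the lowest of the 9 libraries after OVA, ERY1-OVA and TER119-SIINFEKL, all of which were above Naive, and the SIINFEKL pair lay on either side of the Naive libraries. Fanca rose by 3.14 ± 0.40 on the log2 scale after OVA (adjusted p = 3.7e-05). Fancl, the ubiquitin ligase of the complex (chromosome 11, 26386135 to 26471876), stood at 10.3, 7.25 and 9.37 RPKM in OVA, 8.31, 8.07 and 8.06 in ERY1-OVA, 9.49, 8.03 and 7.45 in TER119-SIINFEKL and 4.71 and 3.19 in SIINFEKL, against 3.53, 3.21 and 4.24 in Naive libraries. Its 9 libraries after OVA, ERY1-OVA and TER119-SIINFEKL were likewise above Naive, and it rose by 1.29 ± 0.18 after OVA (adjusted p = 6.7e-05). Fancb, Fancm and Fancc changed by 2.13, 1.20 and 0.79 after OVA. Fancg changed by 0.48 after OVA and 0.44 after ERY1-OVA, and after TER119-SIINFEKL it did not pass the test (0.24, adjusted p = 0.2). Fancf passed in none of these comparisons. The calls of Fancg were lost without OVA replicate 3 (0.42) or Naive replicate 3 (0.42) in the OVA comparison and without ERY1-OVA replicate 1 (0.43) or 3 (0.35) or Naive replicate 1 (0.43) or 3 (0.39) in the ERY1-OVA one. Fance, the subunit that links the core to FANCD2 (chromosome 17, 28313519 to 28326572), stood at 5.18, 6.65 and 5.24 RPKM in OVA, 5.47, 4.08 and 5.16 in ERY1-OVA, 4.37, 4.61 and 5.61 in TER119-SIINFEKL and 6.18 and 6.47 in SIINFEKL, against 6.01, 6.26 and 8.41 in Naive libraries. Its changes were -0.49 ± 0.17 after ERY1-OVA (adjusted p = 0.036) and -0.50 ± 0.17 after TER119-SIINFEKL (adjusted p = 0.027), and Naive replicate 3 was the highest of all libraries. Both calls of Fance were lost without that library (-0.33 and -0.34) and after correcting for gene length and GC content (-0.29 and -0.30). Without ERY1-OVA replicate 2 or 3 the ERY1-OVA call was lost (-0.36 and -0.53), as was the TER119-SIINFEKL call without replicate 1 or 2 of its group (-0.42 and -0.46).

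Of the 5 checkpoint genes, 3 were called higher after OVA, 3 after ERY1-OVA and 3 after TER119-SIINFEKL, each time Clspn, Chek1 and Chek2, while the apical kinases Atm and Atr were not called. Higher calls were 60% each time, against 24.4%, 20.9% and 24.6% of all genes tested. Clspn, the mediator that lets ATR act on CHK1 (chromosome 4, 126556935 to 126593903), stood at 12.5, 13.7 and 19.1 RPKM in OVA, 14.4, 10.8 and 11.0 in ERY1-OVA, 6.42, 15.2 and 12.4 in TER119-SIINFEKL and 2.42 and 0.284 in SIINFEKL, against 0.610, 0.641 and 0.514 in Naive libraries. Among the antigen groups other than SIINFEKL, the lowest library was TER119-SIINFEKL replicate 1, and all 9 libraries were above Naive. The change was 4.66 ± 0.55 after OVA (adjusted p = 2.0e-05), 4.35 ± 0.55 after ERY1-OVA and 4.19 ± 0.55 after TER119-SIINFEKL. Chek1, the kinase that slows the cycle when forks stall (chromosome 9, 36708482 to 36727065), stood at 16.6, 12.0 and 16.1 RPKM in OVA, 11.6, 14.1 and 13.02 in ERY1-OVA, 13.5, 12.0 and 13.6 in TER119-SIINFEKL and 1.97 and 0.361 in SIINFEKL, against 1.14, 1.07 and 1.35 in Naive libraries. Its change was 3.64 ± 0.41 after OVA (adjusted p = 1.3e-05), and the 2 SIINFEKL libraries lay above and below all Naive libraries. Chek2, the kinase downstream of ATM (chromosome 5, 110839979 to 110874145), stood at 5.13, 3.50 and 4.70 RPKM in OVA, 4.78, 4.34 and 4.98 in ERY1-OVA, 4.20, 4.58 and 4.27 in TER119-SIINFEKL and 2.46 and 2.20 in SIINFEKL, against 2.37, 2.07 and 1.93 in Naive libraries, a smaller shift of 1.05 ± 0.16 after OVA (adjusted p = 1.5e-04).

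The apical kinases behaved otherwise. Atm, which senses double-strand breaks (chromosome 9, 53439149 to 53536740), stood at 6.54, 8.52 and 9.65 RPKM in OVA, 11.13, 7.82 and 8.44 in ERY1-OVA, 6.84, 10.36 and 9.36 in TER119-SIINFEKL and 9.23 and 11.79 in SIINFEKL, against 11.05, 11.37 and 10.45 in Naive libraries. The OVA and TER119-SIINFEKL libraries were all below the Naive ones, the highest TER119-SIINFEKL library by a small margin, whereas ERY1-OVA libraries overlapped with Naive. The change was -0.43 ± 0.19 after OVA (adjusted p = 0.075) and -0.33 ± 0.19 after TER119-SIINFEKL (adjusted p = 0.17). Atr, which senses single-stranded DNA (chromosome 9, 95857597 to 95951781), stood at 3.73, 3.80 and 4.53 RPKM in OVA, 4.88, 3.90 and 5.36 in ERY1-OVA, 3.56, 5.99 and 5.05 in TER119-SIINFEKL and 5.54 and 5.38 in SIINFEKL, against 5.23, 4.13 and 4.48 in Naive libraries. Libraries after OVA, after ERY1-OVA and after TER119-SIINFEKL overlapped with Naive, and the change after OVA was -0.20 ± 0.19 (adjusted p = 0.41).

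All 3 subunits of replication protein A were called higher after OVA, ERY1-OVA and TER119-SIINFEKL, against 24.4%, 20.9% and 24.6% of all genes tested. The 3 subunits were abundant already in Naive cells. Rpa1, the large DNA-binding subunit (chromosome 11, 75298166 to 75348324), stood at 88.2, 91.5 and 99.5 RPKM in OVA, 88.6, 80.2 and 77.2 in ERY1-OVA, 76.0, 80.9 and 79.3 in TER119-SIINFEKL and 49.4 and 60.7 in SIINFEKL, against 50.8, 49.9 and 51.2 in Naive libraries. Rpa2, the subunit that checkpoint kinases phosphorylate (chromosome 4, 132768332 to 132778752), stood at 52.5, 46.5 and 52.0 RPKM in OVA, 37.5, 38.5 and 40.4 in ERY1-OVA, 37.5, 41.1 and 41.1 in TER119-SIINFEKL and 14.6 and 17.3 in SIINFEKL, against 16.3, 18.9 and 19.3 in Naive libraries. In both genes the 9 libraries after OVA, ERY1-OVA and TER119-SIINFEKL were above every Naive library. Rpa1 changed by 0.88 ± 0.10 after OVA (adjusted p = 1.2e-05) and Rpa2 by 1.47 ± 0.10 (adjusted p = 2.9e-07). Rpa3, the smallest subunit (chromosome 6, 8255936 to 8259173), stood at 73.4, 37.4 and 41.0 RPKM in OVA, 28.8, 53.3 and 48.6 in ERY1-OVA, 45.6, 32.6 and 38.4 in TER119-SIINFEKL and 23.3 and 12.9 in SIINFEKL, against 23.9, 15.1 and 18.1 in Naive libraries. It varied more between replicates, with OVA replicate 1 far above the other OVA libraries, and still did not overlap with Naive after OVA, ERY1-OVA or TER119-SIINFEKL. It changed by 1.37 ± 0.30 after OVA (adjusted p = 0.0023), and its call after TER119-SIINFEKL (1.04) was lost without Naive replicate 2 (0.89).

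The replicative polymerases gave 6 of 8 genes called higher after OVA, 6 after ERY1-OVA and 7 after TER119-SIINFEKL, and none lower. Higher calls were 75%, 75% and 87.5% of the 8, against 24.4%, 20.9% and 24.6% of all genes tested. Pole, the catalytic subunit of polymerase epsilon (chromosome 5, 110286306 to 110337474), stood at 23.5, 31.2 and 36.1 RPKM in OVA, 34.7, 22.6 and 27.8 in ERY1-OVA, 19.4, 35.5 and 31.2 in TER119-SIINFEKL and 7.72 and 3.96 in SIINFEKL, against 4.61, 5.16 and 6.17 in Naive libraries. It changed by 2.50 ± 0.27 after OVA (adjusted p = 9.2e-06), 2.41 ± 0.27 after ERY1-OVA and 2.40 ± 0.27 after TER119-SIINFEKL, the widest shift of the polymerase genes. Pold3, an accessory subunit of polymerase delta (chromosome 7, 100082111 to 100121565), stood at 28.6, 29.3 and 30.5 RPKM in OVA, 25.8, 25.2 and 27.1 in ERY1-OVA, 24.4, 25.8 and 27.5 in TER119-SIINFEKL and 16.1 and 15.5 in SIINFEKL, against 11.9, 12.4 and 13.3 in Naive libraries. Its replicates lay close together in every group, and it changed by 1.23 ± 0.09 after OVA (adjusted p = 3.3e-07). Pold1, the catalytic subunit of polymerase delta (chromosome 7, 44532746 to 44548849), stood at 28.1, 35.4 and 34.5 RPKM in OVA, 27.1, 20.7 and 29.1 in ERY1-OVA, 21.3, 29.8 and 32.7 in TER119-SIINFEKL and 9.51 and 8.90 in SIINFEKL, against 12.9, 11.3 and 13.3 in Naive libraries. Pole3, a histone-fold subunit of epsilon (chromosome 4, 62522649 to 62525068), stood at 26.6, 20.4 and 22.6 RPKM in OVA, 16.6, 19.7 and 21.3 in ERY1-OVA, 19.3, 19.3 and 21.0 in TER119-SIINFEKL and 8.54 and 9.52 in SIINFEKL, against 12.9, 10.6 and 12.1 in Naive libraries. In both genes the 9 libraries after OVA, ERY1-OVA and TER119-SIINFEKL were above every Naive library, and both SIINFEKL libraries were below every Naive one without passing the test. Pold1 changed by 1.38 ± 0.17 after OVA (adjusted p = 2.4e-05), Pole3 by 0.97 ± 0.13 (adjusted p = 5.3e-05) and Pole2, a further subunit of epsilon, by 1.16. The call of Pole2 after TER119-SIINFEKL (0.77) was lost without Naive replicate 3 (0.59).

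Pold2, Pold4 and Pole4 passed the test in fewer of these comparisons. Pold2, a regulatory subunit of polymerase delta (chromosome 11, 5872180 to 5878292), stood at 36.8, 41.0 and 39.0 RPKM in OVA, 28.7, 26.1 and 28.3 in ERY1-OVA, 30.03, 33.6 and 36.8 in TER119-SIINFEKL and 13.1 and 18.4 in SIINFEKL, against 20.5, 21.5 and 24.9 in Naive libraries. It was called higher after OVA (0.81 ± 0.13, adjusted p = 2.5e-04) and TER119-SIINFEKL (0.59 ± 0.13), and after ERY1-OVA it reached 0.32 ± 0.13 without passing the test (adjusted p = 0.066). Pold4, the smallest subunit of polymerase delta (chromosome 19, 4231899 to 4233634), stood at 32.5, 32.1 and 27.1 RPKM in OVA, 41.2, 50.1 and 45.4 in ERY1-OVA, 52.5, 34.6 and 38.5 in TER119-SIINFEKL and 50.9 and 45.1 in SIINFEKL, against 35.6, 26.1 and 31.2 in Naive libraries. The OVA libraries were close to Naive, at -0.01 ± 0.16, whereas the changes after ERY1-OVA (0.56 ± 0.16, adjusted p = 0.012) and TER119-SIINFEKL (0.42 ± 0.16, adjusted p = 0.04) passed the test. The ERY1-OVA call was lost without ERY1-OVA replicate 2 (0.49) or Naive replicate 2 (0.44), and the TER119-SIINFEKL call without replicate 1 (0.25) or 3 (0.47) of its group, without Naive replicate 2 (0.30) or 3 (0.43), and with quantile normalization (0.28). Pole4, the other histone-fold subunit of epsilon (chromosome 6, 82618992 to 82705365), stood at 80.4, 56.2 and 57.8 RPKM in OVA, 45.5, 61.2 and 50.7 in ERY1-OVA, 68.3, 47.8 and 59.2 in TER119-SIINFEKL and 36.8 and 43.2 in SIINFEKL, against 73.8, 65.7 and 68.1 in Naive libraries and did not pass the test after OVA, ERY1-OVA or TER119-SIINFEKL.

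Single-strand break repair gave 3 of 6 genes called higher after OVA and none lower, 2 higher and 1 lower after ERY1-OVA, and 3 higher and none lower after TER119-SIINFEKL. Higher calls were 50%, 33.3% and 50% of the 6, against 24.4%, 20.9% and 24.6% of all genes tested. The lower call after ERY1-OVA made up 16.7%, near the 19% of all genes tested. The widest change was that of Lig1, the ligase that seals Okazaki fragments during replication and nicks during repair (chromosome 7, 13277283 to 13311433), which stood at 68.2, 78.0 and 86.5 RPKM in OVA, 68.2, 48.9 and 58.0 in ERY1-OVA, 46.0, 67.5 and 65.3 in TER119-SIINFEKL and 10.2 and 3.70 in SIINFEKL, against 7.12, 7.89 and 7.14 in Naive libraries. It changed by 3.39 ± 0.28 after OVA (adjusted p = 9.0e-07), 2.97 ± 0.28 after ERY1-OVA and 2.99 ± 0.28 after TER119-SIINFEKL. Parp1, the main sensor of strand breaks (chromosome 1, 180568924 to 180601254), stood at 44.9, 57.5 and 60.4 RPKM in OVA, 49.3, 33.4 and 37.6 in ERY1-OVA, 43.7, 57.9 and 55.9 in TER119-SIINFEKL and 25.6 and 33.0 in SIINFEKL, against 30.7, 34.6 and 31.5 in Naive libraries. It was called higher after OVA (0.74 ± 0.17, adjusted p = 0.0027) and TER119-SIINFEKL (0.69 ± 0.17), while after ERY1-OVA, where replicate 1 was far above the other pair, it reached 0.29 ± 0.17 (adjusted p = 0.17). Parp2, its relative (chromosome 14, 50807841 to 50821301), stood at 20.9, 21.5 and 22.8 RPKM in OVA, 19.4, 17.1 and 21.5 in ERY1-OVA, 18.1, 19.8 and 19.3 in TER119-SIINFEKL and 15.3 and 11.3 in SIINFEKL, against 14.1, 12.7 and 14.6 in Naive libraries. All 9 libraries after OVA, ERY1-OVA and TER119-SIINFEKL were above every Naive library. Parp2 changed by 0.66 ± 0.12 after OVA (adjusted p = 8.3e-04) and by 0.48 ± 0.12 after ERY1-OVA.

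Lig3, the ligase that works with XRCC1 (chromosome 11, 82781108 to 82804274), stood at 8.73, 10.0 and 11.8 RPKM in OVA, 10.4, 8.54 and 7.57 in ERY1-OVA, 10.8, 12.6 and 11.7 in TER119-SIINFEKL and 8.86 and 9.82 in SIINFEKL, against 12.3, 12.6 and 10.6 in Naive libraries. It was called lower after ERY1-OVA (-0.43 ± 0.14, adjusted p = 0.029), the only member of its role group that was. That call was lost without ERY1-OVA replicate 2 or 3 or Naive replicate 1 or 2, with values of -0.41 to -0.33. Xrcc1, the scaffold of this pathway, reached 0.38 ± 0.15 after OVA and fell just short of the threshold (adjusted p = 0.0501), and Parp3 did not pass the test after OVA, ERY1-OVA or TER119-SIINFEKL.

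In mismatch repair 2 of 5 genes were called higher after OVA, 3 after ERY1-OVA and 3 after TER119-SIINFEKL, and none lower. Higher calls were 40%, 60% and 60% of the 5, against 24.4%, 20.9% and 24.6% of all genes tested. Msh6, which helps recognise mispaired bases (chromosome 17, 87975062 to 87990892), stood at 19.2, 20.8 and 25.4 RPKM in OVA, 20.8, 16.2 and 15.9 in ERY1-OVA, 16.9, 20.9 and 20.9 in TER119-SIINFEKL and 8.51 and 11.0 in SIINFEKL, against 9.41, 12.7 and 10.4 in Naive libraries. All 9 libraries after OVA, ERY1-OVA and TER119-SIINFEKL were above every Naive library, and the change after OVA was 1.01 ± 0.16 (adjusted p = 2.6e-04). Msh3, which helps recognise longer loops, reached 0.06 ± 0.14. Mlh3, which helps cut the strand to be repaired (chromosome 12, 85234520 to 85270599), stood at 2.75, 2.07 and 3.16 RPKM in OVA, 3.57, 3.50 and 3.15 in ERY1-OVA, 4.02, 3.28 and 3.31 in TER119-SIINFEKL and 3.45 and 3.14 in SIINFEKL, against 2.43, 2.42 and 2.35 in Naive libraries. Its ERY1-OVA, TER119-SIINFEKL and SIINFEKL libraries were all above Naive, and its OVA libraries lay on both sides. It did not pass after OVA (0.13) and changed by 0.50 ± 0.17 after ERY1-OVA and 0.55 ± 0.17 after TER119-SIINFEKL, and the change after SIINFEKL did not pass (0.46, adjusted p = 0.11). These calls of Mlh3 were lost without ERY1-OVA replicate 1 (0.47) or 2 (0.48) or any Naive library (0.49 to 0.51) after ERY1-OVA, and TER119-SIINFEKL replicate 1 (0.46) after TER119-SIINFEKL.

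End joining, which rejoins broken ends directly, gave 2 of 4 genes called higher and 1 lower after OVA, none after ERY1-OVA and 2 higher after TER119-SIINFEKL. After OVA these were 50% and 25%, against 24.4% and 23.1% of all genes tested, so the lower share lies near that of all genes. Over all genes tested 20.9% were called higher and 19% lower after ERY1-OVA, and 24.6% higher after TER119-SIINFEKL (50% here). With 4 genes, 1 gene is 25%. The 2 that rose encode the Ku subunits that hold broken ends. Xrcc5, the larger Ku subunit (chromosome 1, 72307421 to 72394952), stood at 20.3, 19.5 and 24.4 RPKM in OVA, 18.4, 15.9 and 16.8 in ERY1-OVA, 21.6, 24.6 and 23.1 in TER119-SIINFEKL and 13.2 and 15.6 in SIINFEKL, against 13.4, 15.9 and 15.6 in Naive libraries. Its OVA and TER119-SIINFEKL libraries were all above Naive, at 0.51 ± 0.12 (adjusted p = 0.0034) and 0.63 ± 0.12 (adjusted p = 7.9e-04), and after ERY1-OVA the change was 0.19 ± 0.12 (adjusted p = 0.22). Correcting for gene length and GC content ended the OVA call, at 0.35. Xrcc6, the smaller Ku subunit (chromosome 15, 81987835 to 82040085), stood at 23.8, 19.7 and 22.8 RPKM in OVA, 17.2, 16.7 and 17.4 in ERY1-OVA, 23.5, 19.4 and 21.2 in TER119-SIINFEKL and 8.93 and 12.6 in SIINFEKL, against 15.0, 16.03 and 15.4 in Naive libraries, with changes of 0.51 ± 0.13 after OVA and 0.46 ± 0.13 after TER119-SIINFEKL. Lig4, the ligase of this pathway (chromosome 8, 9969049 to 9977686), stood at 1.35, 1.05 and 1.64 RPKM in OVA, 1.51, 1.46 and 1.44 in ERY1-OVA, 1.44, 1.68 and 1.25 in TER119-SIINFEKL and 1.70 and 2.10 in SIINFEKL, against 1.72, 3.28 and 1.69 in Naive libraries. Naive replicate 2 stood far above the other Naive libraries. The change after OVA (-0.68 ± 0.26, adjusted p = 0.045) passed the test, but not without Naive replicate 2 (-0.37), OVA replicate 1 (-0.69) or OVA replicate 2 (-0.51), nor without any 1 library of ERY1-OVA or TER119-SIINFEKL (-0.68 in each). Xrcc4, the partner of LIG4 (chromosome 13, 89774027 to 90089608), stood at 5.04, 3.71 and 4.29 RPKM in OVA, 4.45, 5.17 and 4.13 in ERY1-OVA, 5.10, 4.97 and 4.21 in TER119-SIINFEKL and 5.68 and 5.07 in SIINFEKL, against 4.08, 6.94 and 5.47 in Naive libraries. Its groups overlapped with Naive, and it passed in no comparison with Naive (-0.32 ± 0.19 after OVA).

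Nucleotide excision repair, which cuts out bulky lesions, gave no gene called higher after OVA, ERY1-OVA or TER119-SIINFEKL. After OVA 2 of 7 were called lower (28.6%, against 23.1% of all genes tested). There was 1 after ERY1-OVA (14.3%, against 19%) and 2 after TER119-SIINFEKL (28.6%, against 23%), so these shares lie near those of all genes. The group medians were -0.19, -0.14 and -0.19. Ercc5, the endonuclease that cuts on the 3′ side of a lesion (chromosome 1, 44147744 to 44181260), stood at 3.81, 4.27 and 4.74 RPKM in OVA, 4.37, 5.02 and 5.02 in ERY1-OVA, 3.74, 4.31 and 4.06 in TER119-SIINFEKL and 6.94 and 6.35 in SIINFEKL, against 7.43, 5.75 and 6.74 in Naive libraries. Every library after OVA, ERY1-OVA and TER119-SIINFEKL was below every Naive library. The change was -0.63 ± 0.14 after OVA (adjusted p = 0.002), -0.46 ± 0.14 after ERY1-OVA and -0.71 ± 0.14 after TER119-SIINFEKL (adjusted p = 8.5e-04), and the ERY1-OVA call was lost without ERY1-OVA replicate 1 (-0.40) or Naive replicate 1 (-0.38). Ercc6, the factor that starts repair at stalled RNA polymerase (chromosome 14, 32513521 to 32580990), stood at 2.38, 2.56 and 2.44 RPKM in OVA, 2.66, 2.77 and 3.79 in ERY1-OVA, 1.92, 2.69 and 2.56 in TER119-SIINFEKL and 5.82 and 3.88 in SIINFEKL, against 3.98, 3.65 and 3.35 in Naive libraries. It was called lower after OVA (-0.57 ± 0.20, adjusted p = 0.028) and TER119-SIINFEKL (-0.63 ± 0.20, adjusted p = 0.018). Correcting for length and GC ended both calls (-0.30 and -0.39), the OVA call was lost without OVA replicate 1 or 3 or Naive replicate 1 or 2 (-0.57 to -0.51), and the TER119-SIINFEKL call without its replicate 1 (-0.47) or Naive replicate 1 (-0.56).

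The other excision repair genes passed the test in none of these comparisons with Naive. Ercc1, the partner of the ERCC4 nuclease (chromosome 7, 19344778 to 19356524), stood at 15.6, 17.4 and 15.2 RPKM in OVA, 14, 16.1 and 18.2 in ERY1-OVA, 15.8, 16.1 and 14.7 in TER119-SIINFEKL and 15.7 and 12.7 in SIINFEKL, against 15.8, 12.3 and 15.2 in Naive libraries. Its groups overlapped, with a change after OVA of 0.16 ± 0.13 (adjusted p = 0.35). Ercc4, that nuclease (chromosome 16, 13109684 to 13150617), stood at 7.57, 9.67 and 8.94 RPKM in OVA, 9.70, 8.40 and 10.8 in ERY1-OVA, 8.33, 9.25 and 8.10 in TER119-SIINFEKL and 13.01 and 11.8 in SIINFEKL, against 11.4, 10.2 and 10.2 in Naive libraries. All OVA and TER119-SIINFEKL libraries were below every Naive library, with log2 fold changes of -0.28 ± 0.13 (adjusted p = 0.081) and -0.31 ± 0.13 (adjusted p = 0.062). Ercc2, a helicase of TFIIH (chromosome 7, 19382010 to 19395694), stood at 10.11, 10.49 and 10.01 RPKM in OVA, 10.37, 8.07 and 12.16 in ERY1-OVA, 9.11, 10.31 and 11.45 in TER119-SIINFEKL and 13.90 and 14.85 in SIINFEKL, against 12.90, 10.54 and 11.71 in Naive libraries. Its OVA libraries were below every Naive library (-0.19 ± 0.14, adjusted p = 0.28), and its ERY1-OVA and TER119-SIINFEKL libraries overlapped with Naive. Ercc3, the other helicase of TFIIH, and Ercc8 reached 0.08 and 0.09 after OVA. Xrcc6bp1, placed in no role group (chromosome 10, 126868427 to 126901355), stood at 5.48, 4.18 and 4.25 RPKM in OVA, 2.93, 3.32 and 4.18 in ERY1-OVA, 6.09, 4.76 and 5.36 in TER119-SIINFEKL and 2.97 and 4.50 in SIINFEKL, against 5.21, 3.63 and 4.66 in Naive libraries. Each of its groups overlapped with Naive, and it did not pass the test in these comparisons either.

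Few of the 66 genes were called after the free peptide, SIINFEKL, against Naive. The 2 libraries of this group differed widely, with an SD of 0.886 on the log2 scale over the 66 genes. Few calls therefore do not show that the genes stayed at the Naive level. In all 6 were called, 3 higher and 3 lower, against 15.9% of all genes tested, 7.58% higher and 8.34% lower, and the median log2 fold change was 0.03. The genes called higher were Pold3 (0.33 ± 0.10), Pold4 (0.64 ± 0.18) and Parp3 (0.56 ± 0.18), and those called lower were Xrcc6 (-0.54 ± 0.14), Pold2 (-0.52 ± 0.14) and Pole4 (-0.80 ± 0.18), with n = 2 against 3 libraries and limma adjusted p of 0.012 to 0.048. All 6 calls were lost without SIINFEKL replicate 1, with values of 0.31, 0.55, 0.33, -0.29, -0.28 and -0.68 in the order given. All but that of Pole4 were also lost without Naive replicate 2, with values of 0.33, 0.52, 0.53, -0.52 and -0.54.

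The 2 SIINFEKL libraries did not give 1 picture. Over the 66 genes the SD within the SIINFEKL group was 0.886 on the log2 scale (the square root of the mean variance), against 0.203 to 0.292 in the other groups, while over all genes tested it was 0.416. Because the fit holds 1 spread per gene for all groups, this pair enters the SE and p of every comparison, also those without SIINFEKL. In 15 of the 66 genes the pair differed by over 1 log2 unit, as did 6.75% of all genes tested. Replicate 1 lay above every Naive library in 36 of the 66 genes, against 38.8% of all genes tested, and replicate 2 in 12 of 66, against 29.3%. Rad54b, Rad51ap1, Rad54l, Fancd2 and Clspn stood more than 2 log2 units above the Naive mean in replicate 1 and below it in replicate 2. Without replicate 2 the median log2 fold change of the 66 genes against Naive was 0.26, against 0.0009 over all genes tested. Without replicate 1 it was -0.10, against -0.02 over all genes tested. Mki67, a marker of dividing cells, stood at 21.2 RPKM in replicate 1 and 2.89 RPKM in replicate 2, against 1.60, 1.48 and 2.35 RPKM in Naive libraries. Its part in the difference between the replicates was not tested. The sum of CD8 T cell markers was nearly equal in the pair, at 2624 and 2649 RPKM.

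**Figure D4:**
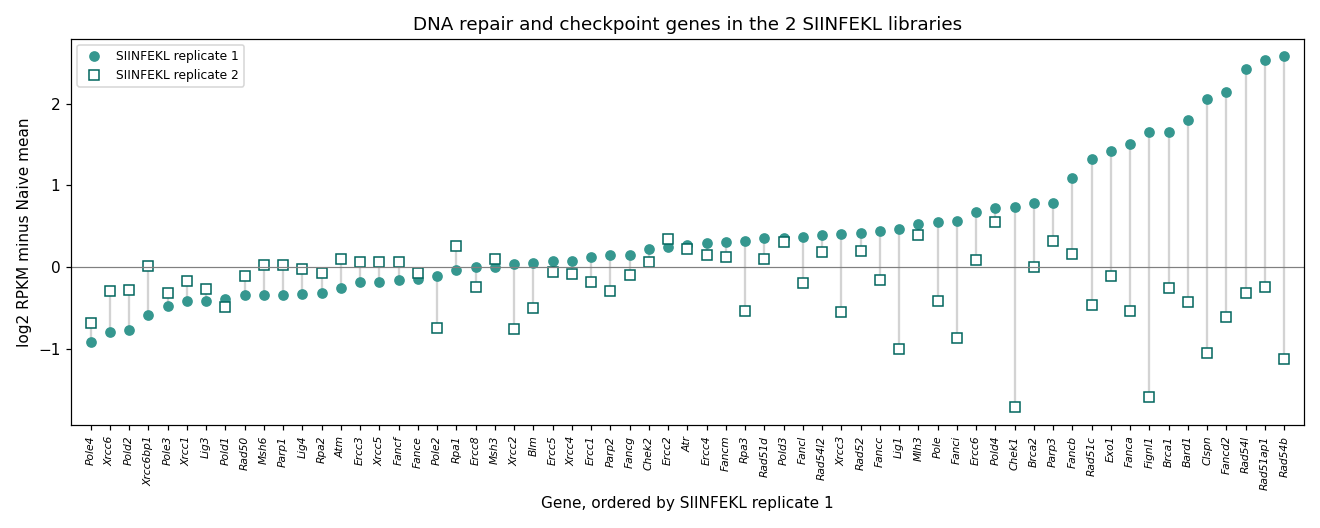
Level of 63 of the 66 genes (x axis, ordered by SIINFEKL replicate 1) in SIINFEKL replicate 1 (filled circles) and replicate 2 (open squares), as log2 RPKM minus the mean of the 3 Naive libraries (y axis). At the right, recombination, Fanconi and checkpoint genes reach up to 2.6 in replicate 1 and lie near or below 0 in replicate 2.

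ERY1-OVA was compared with OVA to see what targeting the protein to erythrocytes changed. No gene of the 66 was called by limma in either direction, against 1.06% of all genes tested (0.408% higher and 0.654% lower). An unadjusted p under 0.05 was found for 9 of the 66 (13.6%), against 17.2% of all genes tested. The median log2 fold change was -0.18, and 51 of the 66 genes (77.3%) were lower in ERY1-OVA than in OVA, against 49.8% of all genes tested. The genes with the smallest adjusted p were Pold2, at 28.7, 26.1 and 28.3 RPKM in ERY1-OVA, against 36.8, 41.0 and 39.0 in OVA libraries (-0.49 ± 0.13, adjusted p = 0.08), Pold4, at 41.2, 50.1 and 45.4 RPKM in ERY1-OVA, against 32.5, 32.1 and 27.1 in OVA libraries (0.58 ± 0.16, adjusted p = 0.086), and Rpa2, at 37.5, 38.5 and 40.4 RPKM in ERY1-OVA, against 52.5, 46.5 and 52.0 in OVA libraries (-0.37 ± 0.10, adjusted p = 0.088). In these 3 genes the groups did not overlap, which was so for 16 of the 66 genes (24.2%) and for 24.4% of all genes tested. For Brca1 the difference was -0.05 ± 0.40. The 95% interval of the difference stayed within 1 log2 unit of 0 for 53 of the 66 genes, so for the other 13 a difference of that size lay within the interval. The spread of the SIINFEKL pair enters these intervals too.

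Some settings did call genes here. With array weights, 18 of the 66 genes were called lower and 1 higher in ERY1-OVA, under a weighting that had not reached its tolerance. Over all 9793 genes tested that weighting called 1334 lower and 1134 higher, against 64 and 40 without weights. Pold4 passed after correcting for length and GC (0.70) and when TER119-SIINFEKL replicate 1 was left out (0.58), and Pold2 without either SIINFEKL library (-0.49). The mean after OVA was the highest of OVA, ERY1-OVA and TER119-SIINFEKL in 44 of the 66 genes. The share over all genes tested was not computed, so nothing is read from this count.

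TER119-SIINFEKL was compared with SIINFEKL to see what targeting the peptide changed. In this comparison 41 of 66 genes were called higher and 5 lower, against 37.4% of all genes tested (20.4% higher and 17% lower), and the median log2 fold change was 0.76. The largest rises include those of Fignl1 (4.01 ± 0.61, SE, 3 against 2 libraries, adjusted p = 2.7e-04), Chek1 (3.94 ± 0.46), Rad54l (3.75 ± 0.53), Clspn (3.68 ± 0.62) and Rad54b (3.45 ± 0.71). The libraries of the 2 groups did not overlap in 56 of the 66 genes (84.8%), against 56.4% of all genes tested. Fignl1, an ATPase of recombination (chromosome 11, 11787431 to 11808962), stood at 35.2, 18.4 and 26.6 RPKM in OVA, 20.5, 25.2 and 17.8 in ERY1-OVA, 20.6, 22.8 and 20.3 in TER119-SIINFEKL and 4.02 and 0.428 in SIINFEKL, against 1.41, 1.40 and 1.06 in Naive libraries. Rad54b, a relative of Rad54l (chromosome 4, 11558922 to 11615805), stood at 4.801, 4.16 and 6.07 RPKM in OVA, 5.00, 4.28 and 5.20 in ERY1-OVA, 3.39, 5.21 and 4.53 in TER119-SIINFEKL and 1.42 and 0.110 in SIINFEKL, against 0.159, 0.289 and 0.292 in Naive libraries. In both genes all TER119-SIINFEKL libraries were above both SIINFEKL ones, and SIINFEKL replicate 1 was far above replicate 2.

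The size of these rises rests on SIINFEKL replicate 2. Without it, the log2 fold change was 2.398 for Fignl1, 2.72 for Chek1, 2.38 for Rad54l, 2.14 for Clspn and 1.61 for Rad54b, and each call held. Without SIINFEKL replicate 1, Rad54b reached 5.30. The calls of Bard1 (0.97), Fancc (0.27), Fancm (0.71), Parp2 (0.32) and Rpa3 (0.73) were lost without replicate 2, and 34 of the 46 calls were kept under each of the 27 alternatives, other than a 2-fold requirement, in which the gene was tested. That requirement left 29 genes called higher and 1 lower. By role, 14 of 17 recombination genes, 6 of 10 Fanconi genes, 3 of 5 checkpoint genes, 3 of 3 replication protein A genes, 7 of 8 polymerase genes, 4 of 6 single-strand break repair genes, 2 of 5 mismatch repair genes and 2 of 4 end joining genes were called higher. Of all genes tested, 20.4% were called higher in this comparison.

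The 5 genes called lower in TER119-SIINFEKL than in SIINFEKL were 4 of the 7 excision repair genes and Parp3. Ercc6 stood at 1.92, 2.69 and 2.56 RPKM in TER119-SIINFEKL, against 5.82 and 3.88 in SIINFEKL libraries (-1.01 ± 0.22, adjusted p = 0.003), and Ercc5 at 3.74, 4.31 and 4.06 RPKM in TER119-SIINFEKL, against 6.94 and 6.35 in SIINFEKL libraries (-0.72 ± 0.15, adjusted p = 0.0025). The groups did not overlap in either gene. Ercc4 differed by -0.53 ± 0.14 (lost without SIINFEKL replicate 1, at -0.46) and Ercc2 by -0.49 ± 0.16. Parp3, a relative of PARP1 that acts at double-strand breaks, stood at 10.4, 11.0 and 10.7 RPKM in OVA, 12.4, 12.6 and 15.5 in ERY1-OVA, 11.3, 13.5 and 13.7 in TER119-SIINFEKL and 22.0 and 16 in SIINFEKL, against 15.8, 12.3 and 10.7 in Naive libraries. TER119-SIINFEKL was below SIINFEKL in every library (-0.55 ± 0.18, adjusted p = 0.026). The call of Parp3 was lost without TER119-SIINFEKL replicate 1 (-0.46) or SIINFEKL replicate 1 (-0.32). The call of Ercc2 was lost without any of TER119-SIINFEKL replicate 1 (-0.40), TER119-SIINFEKL replicate 2 (-0.49), SIINFEKL replicate 1 (-0.54) and SIINFEKL replicate 2 (-0.44), and after correcting for length and GC (-0.30).

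The effect of targeting differed between the protein with ERY1 and the peptide with TER119. The difference, ERY1-OVA minus OVA less TER119-SIINFEKL minus SIINFEKL, was called below 0 for 42 of the 66 genes and above 0 for 5, against 37.7% of all genes tested (20.6% below and 17.1% above). It was -4.14 ± 0.62 for Chek1 (adjusted p = 2.8e-04) and 1.31 ± 0.29 for Ercc6 (adjusted p = 0.0038). The difference contains TER119-SIINFEKL against SIINFEKL with its sign turned, so it is not a separate result from that comparison. Without SIINFEKL replicate 2 the value for Chek1 was -2.92 and the call held. No group here received ERY1 or TER119 alone. The protein was targeted only with ERY1 and the peptide only with TER119, so antigen form and carrier cannot be told apart.

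**Figure D5:**
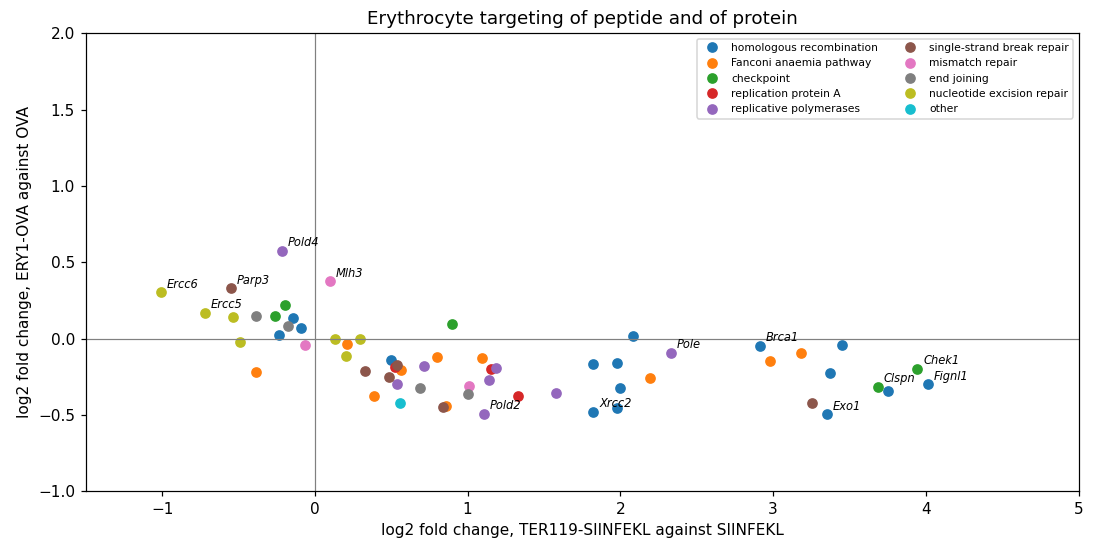
Log2 fold change of TER119-SIINFEKL against SIINFEKL (x axis) and of ERY1-OVA against OVA (y axis) for 63 of the 66 genes, coloured by role. The points spread from -1.0 to 4.0 on the x axis and from -0.50 to 0.58 on the y axis, with recombination, Fanconi and checkpoint genes at the right and excision repair genes at the left.

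Further genes of these processes were counted in the same fit. Of 88 further repair and checkpoint genes, 83 were tested, of which 45 were called higher and 4 lower after OVA, 36 and 5 after ERY1-OVA, 44 and 6 after TER119-SIINFEKL, and 5 and 6 after SIINFEKL. These were 54.2% and 4.82% of the 83 after OVA, against 24.4% and 23.1% of all genes tested, 43.4% and 6.02% after ERY1-OVA, against 20.9% and 19%, and 53% and 7.23% after TER119-SIINFEKL, against 24.6% and 23%. After SIINFEKL they were 6.02% and 7.23%, near the 7.58% and 8.34% of all genes tested. Brip1, the helicase partner of BRCA1, changed by 3.46 ± 0.29 after OVA, 3.38 ± 0.29 after ERY1-OVA and 3.25 ± 0.29 after TER119-SIINFEKL. Eme1, a subunit of a nuclease that cuts joined strands, changed by 4.05 ± 0.34 after OVA and 1.49 ± 0.38 after SIINFEKL (adjusted p = 0.018). Smug1, a glycosylase of base excision repair, was lower after OVA (-1.14 ± 0.22), ERY1-OVA (-1.08 ± 0.22) and TER119-SIINFEKL (-1.30 ± 0.22), and Xpc, the damage sensor of nucleotide excision repair, was lower after OVA (-0.77 ± 0.18), ERY1-OVA (-0.56 ± 0.18) and TER119-SIINFEKL (-0.57 ± 0.18). In ERY1-OVA against OVA, 0 of the 83 were called in either direction by limma. In TER119-SIINFEKL against SIINFEKL, 40 were called higher (48.2%, against 20.4% of all genes tested) and 5 lower (6.02%, against 17%).

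Targets of p53, the factor activated by ATM and CHK2 after DNA damage, were called in both directions. Of 17 genes listed 13 were tested, with 1 called higher and 4 lower after OVA, 3 and 3 after ERY1-OVA, 2 and 3 after TER119-SIINFEKL, and 2 and 2 after SIINFEKL. As shares of the 13 these were 7.69% higher and 30.8% lower after OVA, against 24.4% and 23.1% of all genes tested, 23.1% and 23.1% after ERY1-OVA, against 20.9% and 19%, 15.4% and 23.1% after TER119-SIINFEKL, against 24.6% and 23%, and 15.4% and 15.4% after SIINFEKL, against 7.58% and 8.34%. With 13 genes, 1 gene is 7.69%, so nothing is read from these shares. Bbc3, a pro-apoptotic target, changed by -1.52 ± 0.35 after OVA, -1.94 ± 0.35 after ERY1-OVA, -2.46 ± 0.35 after TER119-SIINFEKL and -1.70 ± 0.39 after SIINFEKL. Sesn2, a stress-response target, changed by 0.78 ± 0.24, 0.96 ± 0.24, 1.09 ± 0.24 and 0.90 ± 0.27 in the same order. Trp53 itself passed the test in none of the 4, with -0.13 ± 0.11 after OVA (adjusted p = 0.35).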

How the data were processed

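RNA from 14 libraries of sorted CD8+ T cells was measured. The deposited values are log2 RPKM of 10106 genes, already normalized by the authors. The base was inferred, since 2 gives more even library totals than e, and neither it nor any prior count is given in the sources used here. As the values came logged, they were tested without the planned addition of 1, which became an alternative. Coordinates are those of GENCODE M21 on GRCm38. Tools named per the submitters' processing notes are bcl2fastq 2.17.1.14, STAR 2.4.2 and edgeR, with builds GRCm38 and mm10 and no stated roles. The counter, annotation and filter are not given in the sources used here.

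Genes with a mean under 1 RPKM were left out (313), and 9793 were tested in limma 3.58.1 (R 4.3.3) with 5 group means, moderated variances and a mean-variance trend, two-sided, with Benjamini-Hochberg adjustment. Every adjusted p is from this fit. The script was tested on simulated data. Tables, promoter windows and figures were made in Python 3.11.15 (matplotlib 3.10.9, numpy 2.4.6, pandas 2.3.3). Depth is unknown, so no counting interval can be given.

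The genes and lists were chosen with earlier results of these data known. Values in every library were given for 12 set genes, up to 4 of each role with the smallest adjusted p against Naive, every gene called lower and up to 6 of the largest changes each way between the peptide groups, less those not reported singly. Counts cover all 66 genes, of which 3 are not reported singly here. Replicate numbers did not pair the libraries. Alternatives covered scaling, length and GC, pseudocount, filter, moderation, weights, replicate block, groups fitted, a 2-fold requirement and leaving out libraries.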

Additional observations from a re-analysis of the deposited data

Results flagged for a closer look

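The effect of targeting was tested as ERY1-OVA minus OVA less TER119-SIINFEKL minus SIINFEKL in the same fit. It differed between the protein with ERY1 and the peptide with TER119 for 47 of the 66 genes, against 37.7% of all genes tested. It was called lower for 42 and higher for 5. The difference contains TER119-SIINFEKL against SIINFEKL with its sign turned. That comparison called 41 of the 66 genes higher and 5 lower, whereas ERY1-OVA against OVA called 0. The calls of the difference are thus not separate from those of TER119-SIINFEKL against SIINFEKL, and both rest on the same 2 SIINFEKL libraries. Low values on the log2 scale were those of Fignl1 (-4.312), Chek1 (-4.141), Rad54l (-4.095), Clspn (-3.998), Exo1 (-3.845) and Lig1 (-3.673). Without SIINFEKL replicate 2 these values were -2.697, -2.918, -2.727, -2.452, -3.085 and -2.941 in the same order, and each call held. The genes called higher were Ercc4 (0.6791), Pold4 (0.7952), Parp3 (0.8819), Ercc5 (0.8922) and Ercc6 (1.31). The calls of Ercc4, Pold4 and Parp3 were lost without SIINFEKL replicate 1, at 0.61, 0.71 and 0.65. Of the 47 calls, 33 were kept in every alternative other than a 2-fold requirement in which the gene was tested. No group held enough libraries for a search for outlying libraries.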

How the results depend on the processing

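Over the 28 alternatives other than a 2-fold requirement (27 with SIINFEKL in the comparison), 39 of 43 calls after OVA against Naive were kept in every setting in which the gene was tested, 33 of 41 after ERY1-OVA, 37 of 44 after TER119-SIINFEKL, 0 of 6 after SIINFEKL and 34 of 46 between TER119-SIINFEKL and SIINFEKL. In the difference of the targeting effects 33 of 47 calls were kept and 14 were lost in some setting. The 2-fold requirement left 30 genes called higher and 0 lower after OVA, 28 and 0 after ERY1-OVA, 28 and 0 after TER119-SIINFEKL, 0 and 0 after SIINFEKL, 29 and 1 between TER119-SIINFEKL and SIINFEKL, and 1 and 31 in the difference of the targeting effects. Array weights gave 7 lower after TER119-SIINFEKL, 0 higher and 1 lower after SIINFEKL, and 3 lower between TER119-SIINFEKL and SIINFEKL. In ERY1-OVA against OVA they gave 1 higher and 18 lower, with 1134 and 1334 over all 9793 genes tested. Fitting only the groups compared gave 0 higher and 1 lower after SIINFEKL, and 3 lower between TER119-SIINFEKL and SIINFEKL. Correcting for length and GC called 1 higher in ERY1-OVA against OVA, and a fit with no SIINFEKL libraries called 1 lower. Without OVA replicate 1 and TER119-SIINFEKL replicate 1 together, 1 was called lower after OVA and 3 between TER119-SIINFEKL and SIINFEKL. The cause was not tested.

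Leaving out each library in turn gave 39 to 43 higher and 1 to 3 lower after OVA, 35 to 39 and 1 to 4 after ERY1-OVA, 38 to 41 and 1 to 4 after TER119-SIINFEKL, 0 to 15 and 1 to 5 after SIINFEKL, 0 to 1 and 0 to 1 in ERY1-OVA against OVA, 35 to 41 and 2 to 5 between TER119-SIINFEKL and SIINFEKL, and 2 to 6 and 36 to 43 in the difference of the targeting effects. Against Naive, the uncalled SIINFEKL values of Chek1 and Fignl1 changed sign. Chek1 ran between -1.71 without SIINFEKL replicate 1 and 0.736 without replicate 2 and Fignl1 between -1.578 and 1.652. With 1 SIINFEKL library left, that library is assumed to vary like the other groups.

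Among 26 pairs of libraries with the same replicate number, 14 had correlated deviations over 0.1 (range -0.443 to 0.665), so the numbers were not taken to pair libraries. With a replicate block, 41 genes were called higher and 2 lower after OVA, 38 and 3 after ERY1-OVA, 41 and 3 after TER119-SIINFEKL, 2 and 3 after SIINFEKL, 0 and 0 in ERY1-OVA against OVA, 40 and 5 between TER119-SIINFEKL and SIINFEKL, and 5 and 43 in the difference. Depth is unknown, so the precision of low values such as those of Brca2 or Exo1 in Naive libraries cannot be stated. Adding 1 to the RPKM lowered the log2 fold changes of such genes by more than 1.5 times without ending a call after OVA.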
